A study of Mus musculus with 6 samples.

Results

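The insulin-like growth factor (IGF) family described here comprises 10 genes, chosen by symbol from the 17556 genes of the expression table: the ligands *Igf1* and *Igf2*, the receptors *Igf1r* and *Igf2r*, and the binding proteins *Igfbp2*, *Igfbp3*, *Igfbp4*, *Igfbp5*, *Igfbp6* and *Igfbp7*. All 10 passed the filter on low counts and were tested with 13817 genes in all. RNA was taken from whole left ventricles 4 days post injury (dpi), the injury being a myocardial infarction (MI) made by permanent ligation of the left anterior descending artery. The 3 PostnMCM ventricles carried 2 floxed Yap alleles, 1 floxed Wwtr1 allele and MerCreMer, a tamoxifen-inducible Cre recombinase, at the endogenous *Postn* locus. The 3 Cre-negative sibling ventricles carried the same floxed alleles with wildtype *Postn*. Both genotypes were 6 to 10 weeks of age, had the same surgery and were fed tamoxifen citrate diet from the end of surgery. In this model recombination is limited to cells that express *Postn*, which marks myofibroblasts, while the RNA comes from every cell of the ventricle. The labels do not say whether each sample was 1 mouse, so the p-values measure the spread between these samples.

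IGF1 and IGF2 are secreted peptides that activate the receptor tyrosine kinase IGF1R, which signals through phosphoinositide 3-kinase, Akt and the mitogen-activated protein kinases and promotes growth and survival of many cell types, cardiomyocytes included. IGF2R, the cation-independent mannose 6-phosphate receptor, has no kinase; it takes IGF2 into lysosomes and also carries lysosomal enzymes. The binding proteins hold IGFs outside the cell, in the circulation or in the matrix, and release them when proteases cut them. Yap and the product of *Wwtr1* (Taz) do not bind DNA on their own and reach promoters mainly through TEAD factors, whose core motif is GGAATG, or CATTCC on the other strand.

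RefSeq promoters on the build GRCm38.p6 were found for every member, 14 windows in all, and the 250 bases before each start were searched for the TEAD core on both strands. It was present in 4 of the 14 windows, those of 3 *Igf2* starts and of *Igfbp5*, against 12.6% of all 32851 promoters searched over the same length. By gene it was present in 2 of the 10 members, and the 12.6% is a share of promoters, not of genes. TATAAA, searched on both strands and not overlapping a TEAD core in these windows, was found in 2 windows, those of *Igfbp4* and *Igfbp6*, against 12.4% of all promoters. A match is a description of the letters and not a bound site. The *Igfbp5* window, chr1:72874866-72875115 on the minus strand, and the *Igf2* window with a pair of matches, chr7:142661272-142661521 on the minus strand, are shown because the products of the floxed genes act through this motif; capitals mark the TEAD core and each sequence runs 5′ to 3′ toward the start.
Igfbp5: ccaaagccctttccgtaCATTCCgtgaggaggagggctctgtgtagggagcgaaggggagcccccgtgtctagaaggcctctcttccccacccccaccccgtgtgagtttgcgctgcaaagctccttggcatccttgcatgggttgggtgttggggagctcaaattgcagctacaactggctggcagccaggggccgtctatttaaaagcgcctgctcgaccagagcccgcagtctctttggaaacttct
Igf2: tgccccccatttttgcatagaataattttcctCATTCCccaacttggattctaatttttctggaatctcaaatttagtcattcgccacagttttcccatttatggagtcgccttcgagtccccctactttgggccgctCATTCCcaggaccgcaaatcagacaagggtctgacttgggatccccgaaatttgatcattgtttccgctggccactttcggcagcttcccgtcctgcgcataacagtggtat

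Total counts were between 13177888 and 14827579 per ventricle. On normalised counts the targeted transcripts overlapped between genotypes, with a log2 fold change of PostnMCM over siblings of 0.03 for *Yap1* (SE 0.09) and 0.05 for *Wwtr1* (SE 0.08). In TPM both were higher in all 3 PostnMCM ventricles, *Yap1* at 44.2, 46.3 and 44.4 against 50.7, 49.0 and 48.9 and *Wwtr1* at 39.3, 39.6 and 43.6 against 43.9, 45.8 and 47.4. On that scale 15% of all genes tested were higher without overlap, and the median gene was 0.11 higher in PostnMCM, as log2(TPM + 1), against 0.14 for *Yap1* and 0.16 for *Wwtr1*. *Postn*, the locus that holds the Cre, was at 12157, 24639 and 26862 normalised counts in the siblings and at 12682, 14240 and 13486 in PostnMCM, with sibling replicate 1 the lowest of the 6. Its log2 fold change was -0.66 (SE 0.27, adjusted p = 0.714, edgeR quasi-likelihood test), and -0.94 (adjusted p = 0.0182) without sibling replicate 1. It was -0.54 (adjusted p = 0.654) without sibling replicate 2 and -0.45 (adjusted p = 0.551) without sibling replicate 3. Sibling replicate 1 stood apart from the other libraries, with a median absolute log2 difference of 0.285 from them on average, against 0.17 to 0.192 for the others. It had the highest summed TPM (a level per transcript length, scaled to the same total in each library) of 8 cardiomyocyte markers, 59908 against 45771 to 51678. Its sums were the lowest for 8 fibroblast markers (3845 against 5218 to 6709) and 7 myofibroblast markers (1307 against 2577 to 3057), and the highest for 7 neutrophil markers (426 against 53.2 to 162). Every one of these markers was above 0 in the data. By genotype, the 8 cardiomyocyte markers were each lower in PostnMCM in fitted value (median log2 fold change -0.31) and so were 5 of 6 tested neutrophil markers (-0.63), while 6 of 6 epicardial markers (0.64), 4 of 4 tested lymphocyte markers (0.40) and 6 of 7 myofibroblast markers (0.35) were higher. The cardiomyocyte sums separated the genotypes over all 6 ventricles, at 50900.0 to 59908 TPM in siblings and 45771 to 49376 TPM in PostnMCM. Outside sibling replicate 1 the epicardial sums also separated, at 60.5 and 35.0 against 92.3 to 180.7 TPM. Without that sibling the myofibroblast sums overlapped, at 2767 and 3057 against 2577 to 2875 TPM. So did the neutrophil sums, at 90.2 and 53.2 against 72.7 to 162 TPM. Lymphocyte sums were low and overlapped over all 6 ventricles, at 8.52 to 32.59 TPM in siblings and 5.16 to 47.51 TPM in PostnMCM. The part of these cell types in the members' values was not tested. None of these markers passed the adjusted threshold. Replicate 2 of each genotype had 16 and 12 counts over 4 Y-linked genes, against 1592 to 2034 in the other ventricles. In whole tissue, fewer cells of a type and less RNA per cell cannot be told apart.

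Across the 6 ventricles the family spanned from *Igfbp7*, with a mean of 1400.2 TPM and rank 104 of the genes tested, to *Igfbp2*, with 1.79 TPM. *Igfbp7* was 4.38-fold above *Igfbp4* (313.7 TPM) and *Igfbp4* was 3.72-fold above *Igfbp3* (85.7 TPM), as geometric means of the ratio within a ventricle, and each order held in 6 of 6 ventricles. Below them stood a group of similar level made of *Igfbp3*, *Igfbp5* (72.3 TPM), *Igf2* (63.0 TPM), *Igfbp6* (56.3 TPM) and *Igf2r* (53.6 TPM). Neighbours within that group had overlapping ranges, and the gene with the higher mean was above the next in 3 or 4 of 6 ventricles, so the order of neighbours is not resolved by these samples. The ends of the group were separate, *Igfbp3* at 65.1 to 110.5 TPM lying above *Igf2r* at 41.9 to 60.2 TPM in all 6 ventricles. *Igf1* followed at 25.0 TPM, *Igf1r* at 7.59 TPM and *Igfbp2* at 1.79 TPM, each below its upper neighbour in 6 of 6 ventricles.

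**Figure D1:**
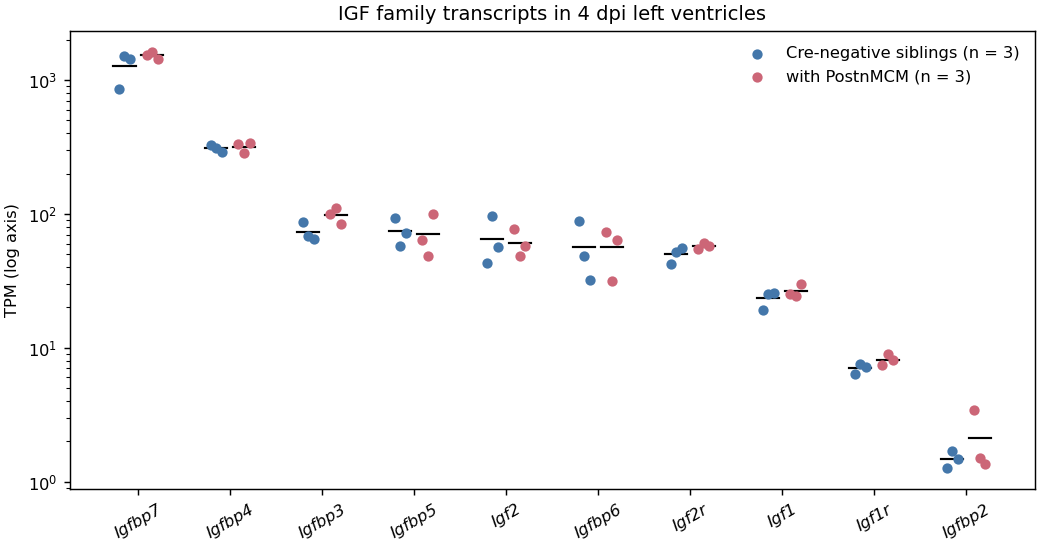
Level of each of the 10 IGF family transcripts in 4 dpi left ventricles, in TPM on a log axis; points are single ventricles (blue, 3 Cre-negative siblings; red, 3 PostnMCM) and bars are genotype means. *Igfbp7* lies near 1400.2 TPM and *Igfbp2* near 1.79 TPM, and the points of both genotypes overlap for every gene.

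No member passed the test of genotype. At an adjusted p under 0.05 the edgeR test called 0 of the 10 members, against 0.00724% (1 gene) of all genes tested, and at an unadjusted p under 0.05 it called 0 members, against 5.83% of all genes tested (2.85% higher and 2.98% lower in PostnMCM). DESeq2 also called 0 members at either threshold, against 5 (adjusted) and 812 (unadjusted) of all 13817 genes tested. In all, 6 members had a fitted value above 0 and 4 below, *Igfbp4* and *Igfbp6* moving above 0 in the fits on TPM. In the edgeR fit 51.2% of all genes tested were above 0. The median log2 fold change of the members was 0.08, against 0.0062 over all genes tested. On normalised counts the genotypes overlapped for each member, whereas 14.4% of all genes tested had no overlap. Adjusted p-values of the members lay between 0.714 and 0.937. The smallest p that an exact permutation test of 3 against 3 can give is 0.1, and the members gave 0.2 to 0.9 (two-sided).

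The precision differed widely between members. The 95% interval of the log2 fold change lay within 2-fold in either direction for 8 members, all except *Igfbp2* and *Igfbp6*, and within 1.5-fold for 5, namely *Igf1*, *Igf1r*, *Igf2r*, *Igfbp4* and *Igfbp7*. A difference of 2-fold was therefore outside the interval for 8 of the 10 members.

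**Figure D2:**
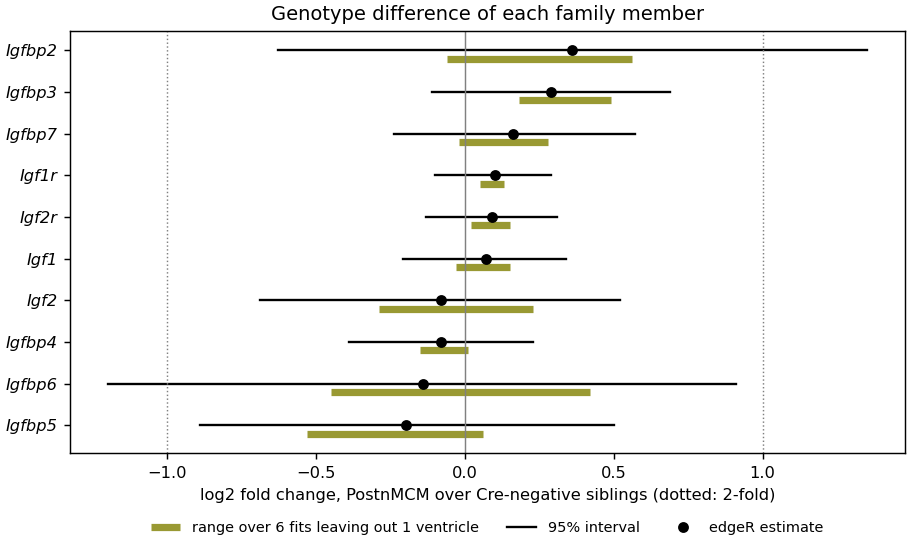
Log2 fold change of PostnMCM over Cre-negative siblings for each member (x axis; dotted lines, 2-fold): dots are edgeR estimates, black lines 95% intervals, and green bars the range of the estimate when each of the 6 ventricles was left out. Every interval includes 0, and the widest belong to *Igfbp6* (-1.20 to 0.91) and *Igfbp2* (-0.63 to 1.35).

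Of the ligands, *Igf1* varied little and *Igf2* more. *Igf1* (gene 16000; chr10:87858265-87937047, plus strand) was at 1187, 1402 and 1427 normalised counts in the siblings and at 1383, 1249 and 1581 in PostnMCM. The lowest ventricle was a sibling and the highest a PostnMCM, with the rest mixed between them. Its log2 fold change was 0.07 (SE 0.12, 95% interval -0.21 to 0.34, adjusted p = 0.872). *Igf2* (gene 16002; chr7:142650768-142666816, minus strand), an imprinted gene expressed mainly in fetal tissues, was at 956, 1679 and 1001 in the siblings and at 1452, 857 and 1124 in PostnMCM. The highest sibling stood above every PostnMCM ventricle and the lowest PostnMCM below every sibling, so genotype did not order the ventricles. The log2 fold change of *Igf2* was -0.08 (SE 0.26, 95% interval -0.69 to 0.52, adjusted p = 0.934), and it was 0.23 without sibling replicate 2. *Igf2* overlaps *Igf2os* and the microRNA gene *Mir483*, and whether counting used strand is not stated in the sources used here. Within a ventricle the *Igf2* level exceeded that of *Igf1* by 1.9 to 3.82 times in TPM.

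The receptors were the steadiest members. *Igf1r* (gene 16001; chr7:67952257-68233668, plus strand) was at 628, 678 and 633 normalised counts in the siblings and at 657, 737 and 681 in PostnMCM. One sibling lay among the PostnMCM values and the other two below them. Its log2 fold change was 0.10 (SE 0.08, 95% interval -0.10 to 0.29, adjusted p = 0.746), and its spread within genotypes, an SD of 0.07 on the log2 scale, was at the percentile 9.05 of all genes tested. *Igf2r* (gene 16004; chr17:12682406-12769706, minus strand) was at 3268, 3665 and 3855 in the siblings and at 3821, 3888 and 3799 in PostnMCM. Sibling replicate 1 was the lowest of the 6 and the other values lay close together. The log2 fold change of *Igf2r* was 0.09 (SE 0.09, 95% interval -0.13 to 0.31, adjusted p = 0.778). The *Igf2r* level was 6.58 to 7.65 times that of *Igf1r* in every ventricle, on the TPM scale, so this ratio moved less than that of the ligands. *Airn*, the noncoding RNA that overlaps *Igf2r*, is not analysed here.

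*Igfbp7* and *Igfbp4* supplied most of the binding protein transcripts. *Igfbp7* (gene 29817; chr5:77349240-77408045, minus strand) encodes a secreted matrix protein with low affinity for IGFs that is abundant in vessels. It was at 7866, 12306 and 11717 normalised counts in the siblings and at 12452, 12130 and 11161 in PostnMCM. The other ventricles were close together and sibling replicate 1 was far below them. For *Igfbp7* the log2 fold change was 0.16 (SE 0.17, 95% interval -0.24 to 0.57, adjusted p = 0.785) and was -0.02 without that sibling. The same sibling had the lowest sum of 7 endothelial markers, 537 TPM against 641 to 746, and the lowest fibroblast and myofibroblast sums given above; their part in the *Igfbp7* value was not tested. *Igfbp7* overlaps *Polr2b*, which is also in the table. *Igfbp4* (gene 16010; chr11:99040005-99052655, plus strand), which restrains IGF action until it is cut by the protease pregnancy-associated plasma protein A, was at 5726, 4860 and 4556 in the siblings and at 5157, 4109 and 5041 in PostnMCM. Here sibling replicate 1 was the highest of the 6 ventricles. This gave *Igfbp4* a log2 fold change of -0.08 (SE 0.13, 95% interval -0.39 to 0.23, adjusted p = 0.859).

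*Igfbp3* had the lowest unadjusted p of the family. The gene (gene 16009; chr11:7206086-7215498, minus strand) encodes the main IGF carrier of the circulation. It was at 1807, 1272 and 1214 normalised counts in the siblings and at 1853, 1902 and 1486 in PostnMCM. The lowest pair were siblings and the highest pair PostnMCM, and the groups overlapped through sibling replicate 1, which lay above PostnMCM replicate 3. For *Igfbp3* the log2 fold change was 0.29 (SE 0.17, 95% interval -0.11 to 0.69, unadjusted p = 0.134, adjusted p = 0.714), and the exact permutation test gave p = 0.2. Without sibling replicate 1 the log2 fold change was 0.49 with an unadjusted p of 0.00256 and an adjusted p of 0.724, so the call did not change over all genes. In TPM the same ventricles read 86.8, 68.0 and 65.1 in the siblings and 99.7, 110.5 and 83.8 in PostnMCM.

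*Igfbp5* and *Igfbp6* varied most among the well-counted members, and in both the spread lay within genotypes. *Igfbp5* (gene 16011; chr1:72858065-72874865, minus strand), whose product binds extracellular matrix, was at 4702, 2628 and 3280 normalised counts in the siblings and at 2876, 2039 and 4349 in PostnMCM. Sibling replicate 1 and PostnMCM replicate 3 were the highest, so each genotype held 1 of the top pair. Its log2 fold change was -0.20 (SE 0.30, 95% interval -0.89 to 0.50, adjusted p = 0.849). *Igfbp6* (gene 16012; chr15:102144186-102149512, plus strand), which prefers IGF2 over IGF1, was at 943, 462 and 302 in the siblings and at 694, 274 and 574 in PostnMCM. The highest ventricle was 3.44 times the lowest, and the within-genotype SD of 0.77 on the log2 scale was at the percentile 96.4 of all genes tested, where the median SD was 0.18. The log2 fold change of *Igfbp6* was -0.14 (SE 0.45, 95% interval -1.20 to 0.91, adjusted p = 0.937), and it was 0.42 without sibling replicate 1. The 3 ventricles with most *Igfbp6* also had the highest sums of 6 epicardial markers, 135 TPM in sibling replicate 1 and 181 and 111 in PostnMCM replicates 1 and 3, against 35.0 to 92.3 in the rest. The same 3 ventricles had the highest sums of 7 neutrophil markers, 426 TPM in sibling replicate 1 and 162 and 133 in PostnMCM replicates 1 and 3, against 53.2 to 90.2 in the rest. The part of either cell type in this spread was not tested.

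*Igfbp2* (gene 16008; chr1:72824480-72852474, plus strand) was near the limit of the depth. Its raw estimated counts were 8, 17 and 14 in the siblings and 26, 14 and 13 in PostnMCM. PostnMCM replicate 1 stood above the other 5, which overlapped. A log2 fold change of 0.36 (SE 0.43, 95% interval -0.63 to 1.35, adjusted p = 0.808) was fitted, and one of -0.06 without that ventricle, and a 2-fold higher level lay within the interval at this depth. *Igfbp2* lies 5590 bases from *Igfbp5* in the opposite orientation. Sibling replicate 1 had the fewest normalised counts of *Igfbp2* and the most of *Igfbp5*. With raw counts of 8 to 26, *Igfbp2* does not resolve an order of ventricles to set beside that of *Igfbp5*.

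**Figure D3:**
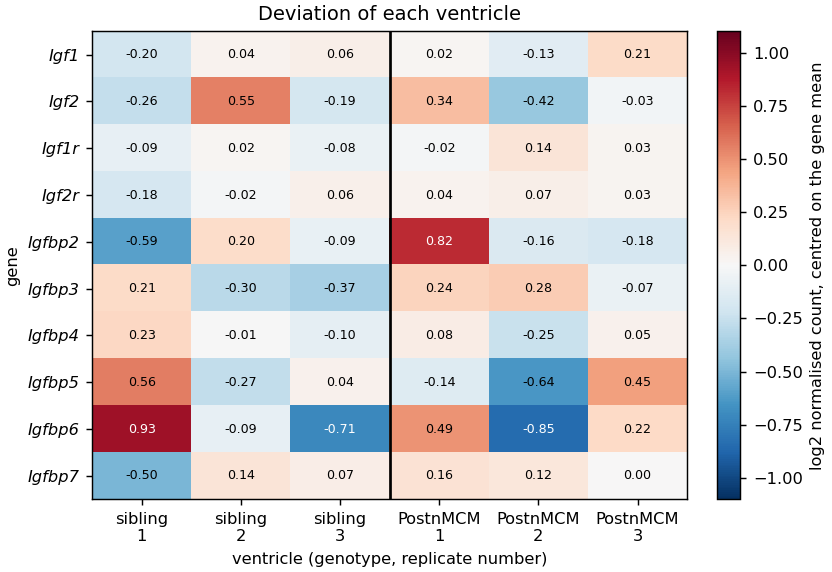
Each cell is the log2 normalised count of a member (rows) in 1 ventricle (columns; vertical line between genotypes) minus the mean of that gene over the 6 ventricles, with red above and blue below the mean. Sibling replicate 1 is high for *Igfbp6* (0.93) and *Igfbp5* (0.56) and low for *Igfbp2* (-0.59) and *Igfbp7* (-0.50), and the rows of *Igf1r* and *Igf2r* are nearly white.

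Sums over the family were taken in each ventricle. The binding protein transcripts summed to 1459.6, 1990.4 and 1902 TPM in the siblings and to 2106, 2092 and 2030.0 TPM in PostnMCM. On the TPM scale all 3 PostnMCM sums were above all 3 sibling sums, but in FPKM they overlapped, with sibling replicate 2 at 1108.5 and PostnMCM replicate 3 at 1101.2. Among single genes tested, 15% were without overlap and higher in PostnMCM in TPM. The means were 1784 ± 284 TPM (SD, n = 3) and 2076 ± 40.4 TPM (SD, n = 3), and the lowest sibling was replicate 1. *Igfbp7* made up 59.1% of the sum in that sibling and 71.0% to 77.2% in the other 5 ventricles. Without *Igfbp7* the sums overlapped, at 596.8, 485.2 and 462.0 TPM against 570.6, 476.3 and 588.0 TPM. The ligand sum was 88.8 ± 30.4 TPM in siblings and 87.2 ± 14.4 TPM in PostnMCM (SD, n = 3 each). The binding protein to ligand ratio was 23.5, 16.3 and 23.1 in the siblings and 20.7, 28.8 and 23.3 in PostnMCM, with means of 21.0 ± 4.05 and 24.3 ± 4.14 (SD, n = 3 each), a difference smaller than the spread. Sums in TPM are to be read against the shift of the median gene given above.

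**Figure D4:**
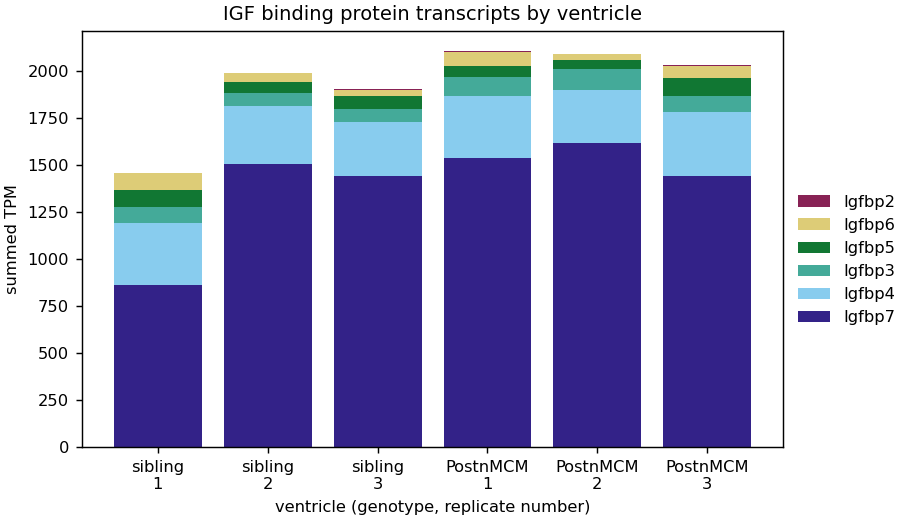
Summed TPM of the 6 IGF binding protein transcripts in each ventricle (bars, from 0), with segments for each gene. *Igfbp7* is the largest segment in all 6 ventricles, and sibling replicate 1 has the shortest bar at 1459.6 TPM, with an *Igfbp7* segment of 862.8 TPM.

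Likeness between members was measured as the root mean square difference, over the 6 ventricles, of log2 normalised counts centred on their mean; small values mean like patterns. *Igf1r* and *Igf2r* were each other's nearest member, with a difference of 0.079. *Igf2r* was also nearest to *Igf1* (0.111) and to *Igfbp7* (0.156). These genes have small ranges, so a small difference between them is partly set by how little each moved. *Igfbp6* was farthest from the rest, its nearest member being *Igfbp5* at 0.454. Over all genes tested, the nearest to *Igfbp6* were *Fcna* (0.098), which encodes the plasma lectin ficolin A, the complement gene *C4b* (0.126) and the macrophage receptor gene *Vsig4* (0.148). Sibling replicate 1, the highest for *Igfbp6* and *Vsig4*, had the lowest sum of 8 macrophage markers, 2178 TPM against 2668 to 3381 in the rest. *Fcna* was at 386, 168 and 129 normalised counts in the siblings and 296, 108 and 258 in PostnMCM, the same order as *Igfbp6* across all 6 ventricles. The nearest genes to *Igfbp5* were *Lingo3* (0.095), *Hs3st1* (0.145) and *Prickle4* (0.149). For *Igfbp2* they were *Lingo1* (0.138), *Neurl1a* (0.148) and the tropomyosin gene *Tpm2* (0.164). These are 6 points from shared libraries, picked as the nearest of all genes tested, and carry no test.

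Other genes of the pathway were read from 3 lists. Of 57 genes, 52 were in the table and 49 were tested; *Igfbp1*, *Ins1*, *Ins2*, *H19* and *Airn* are not analysed here. None passed an adjusted p under 0.05, and 3 had an unadjusted p under 0.05, 2 higher (2.85% of all genes tested) and 1 lower (2.98%) in PostnMCM. The median log2 fold change of the 49 genes was -0.02, and 23 were above 0. Values of 3 genes were higher in all PostnMCM than in all sibling ventricles (*Igf2bp2*, *Shc1*, *Rictor*), against 7.55% of all genes tested, and 1 (*Gnptg*) had values lower in all, against 6.85%.

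The list of other IGF axis genes (the carrier subunit *Igfals*, *Igfbpl1*, the receptors *Insr* and *Ghr*, proteases, stanniocalcins and RNA-binding proteins) had 11 tested genes, 4 above 0 and 7 below, with a median of -0.16. *Pappa*, the protease that cuts *Igfbp4* protein, was low in counts, at 99.9, 50.03 and 98.1 normalised counts in the siblings and 166, 98.8 and 130 in PostnMCM. The groups overlapped by a narrow margin, and the log2 fold change was 0.67 (SE 0.30, unadjusted p = 0.0596, adjusted p = 0.714), and 0.41 without sibling replicate 2. *Htra3*, a secreted serine protease of the HtrA family, had a log2 fold change of -0.51 (SE 0.31, adjusted p = 0.714). Sibling replicate 1 was its highest ventricle at 5781 normalised counts, and without it the value was -0.11. *Igfbpl1*, a secreted relative of the binding proteins, had few counts and a value of -0.44 (SE 0.61, adjusted p = 0.834), which was 0.09 without the same sibling. In level, *Htra3* (162 TPM), *Htra1* (124 TPM) and the growth hormone receptor gene *Ghr* (73.1 TPM) were highest. *Igf2bp2*, an RNA-binding protein gene named for its binding to *Igf2* mRNA, was at 236, 175 and 233 in the siblings and 239.8, 300.0 and 297 in PostnMCM, a log2 fold change of 0.38 (SE 0.16, unadjusted p = 0.0446, adjusted p = 0.714), and of 0.25 without sibling replicate 2.

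Receptor signalling genes, from the receptor adaptors to Akt, mTOR and the mitogen-activated protein kinases, showed 16 values above 0 and 18 below among 34 tested, with a median of -0.012. *Pik3r1*, the regulatory subunit of phosphoinositide 3-kinase, was at 1889, 1224 and 1029 normalised counts in the siblings and 951, 1043 and 1017 in PostnMCM. Its log2 fold change was -0.46 (SE 0.21, adjusted p = 0.714), and -0.17 without sibling replicate 1, the highest ventricle. *Grb14*, an adaptor that inhibits insulin receptor signalling, had one of -0.40 (SE 0.20, adjusted p = 0.714), and of -0.14 without the same sibling, the highest at 3110.3 normalised counts. *Rictor*, the defining subunit of mTOR complex 2, was at 236, 283 and 241 in the siblings and 301, 349 and 304 in PostnMCM, with no overlap and a log2 fold change of 0.33 (SE 0.12, unadjusted p = 0.0272, adjusted p = 0.714). *Shc1*, an adaptor of IGF1R, was also without overlap, at 0.19 (SE 0.08, unadjusted p = 0.0524, adjusted p = 0.714). The highest levels were those of *Eif4ebp1* (341 TPM), *Akt1* (304 TPM) and *Mapk3* (183 TPM).

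The last list holds 4 genes that form and read the mannose 6-phosphate tag that *Igf2r* binds. *Gnptg*, a subunit of the enzyme that attaches the tag, was at 252, 241 and 264 normalised counts in the siblings and at 219.9, 181 and 185 in PostnMCM. Its values were lower in all 3 PostnMCM ventricles, with a log2 fold change of -0.37 (SE 0.12, unadjusted p = 0.0173, adjusted p = 0.714). *Gnptab*, which encodes the catalytic part of the same enzyme, had a log2 fold change of 0.23 (SE 0.10, adjusted p = 0.714). *M6pr*, the smaller mannose 6-phosphate receptor, was at 0.15 (SE 0.13, adjusted p = 0.757), and at 0.01 without sibling replicate 1, and was the highest of the list at 98.1 TPM, above *Nagpa* (28.8 TPM) and *Gnptg* (24.7 TPM).

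**Figure D5:**
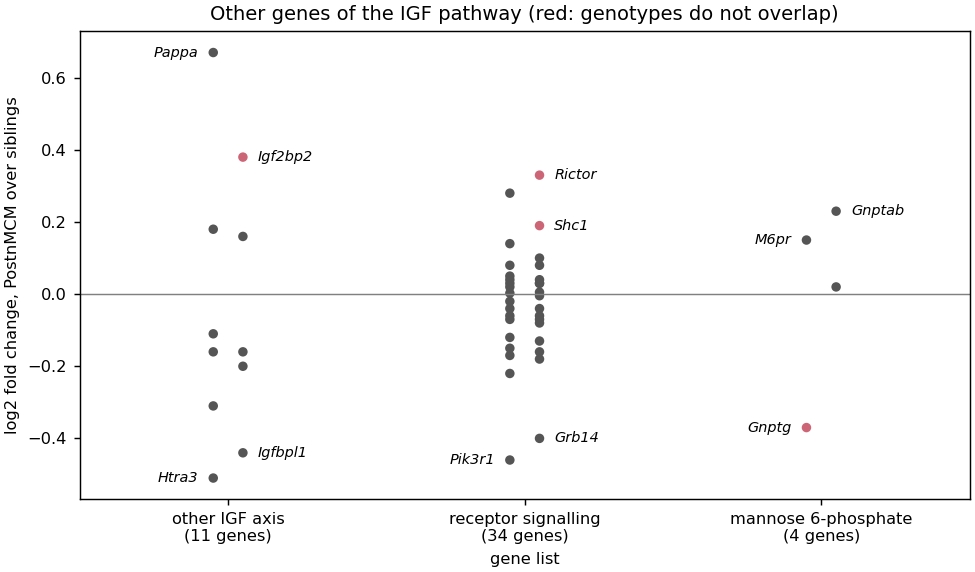
Log2 fold change of PostnMCM over Cre-negative siblings (y axis) for the tested genes of the 3 pathway lists (x axis; 11, 34 and 4 genes), each dot 1 gene, with red for genes whose genotypes do not overlap. Values run from -0.51 (*Htra3*) to 0.67 (*Pappa*), and no gene passed the adjusted threshold.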

How the data were processed

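Bulk RNA-seq of 6 left ventricles, 3 per genotype, was analysed. The submitters' processing notes name Bowtie2 2.2.5, RSEM 1.2.12 and the build GRCm38.p6, without roles; whether counting used strand is not given in the sources used here. The authors deposited estimated counts, not normalized, 11.46% of them not whole numbers, with TPM values and FPKM values, both scaled by the authors to length and library size. TPM was used for levels and FPKM as an alternative. The deposited columns of the authors' own genotype comparison (fold changes and p-values) were not used.

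The test was run on counts rounded to whole numbers with edgeR 4.0.16 (R 4.3.3), using filterByExpr (minimum count 10, minimum total 15), TMM scaling and the quasi-likelihood test with no covariate, Benjamini-Hochberg adjustment over all 13817 genes tested and a threshold of 0.05. Normalised counts were set to 14264187 counts, the mean library, after TMM scaling. Exact permutation tests were two-sided (scipy 1.17.1, Python 3.11.15). A count of 0 allows 3 counts, 0.202 to 0.228 CPM, for counting error only. On simulated data for this comparison (13817 genes) the test called 66 of 100 genes changed 2-fold, 95 of 100 changed 4-fold and 12 of 13617 unchanged genes. Alternatives used DESeq2 1.42.0, limma 3.58.1, other scalings and filters, a covariate for Y-linked counts, a replicate block and leaving out each ventricle. Figures were drawn with matplotlib 3.10.9.

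The members and lists were chosen with earlier results of these data known. Named genes were all members; per pathway list the 3 with the largest absolute log2 fold change and the 3 with the highest mean TPM; for the 3 members with the widest range, the 3 nearest genes; and *Yap1*, *Wwtr1* and *Postn*. *Igf2bp2* and *Shc1* fall outside this rule and were named after their values were seen. Positions and promoters are from RefSeq on GRCm38.p6.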

Additional observations from a re-analysis of the deposited data

How the results depend on the processing

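Under 16 alternative fits no member and no pathway gene passed an adjusted p under 0.05, and adjusted p-values of the members lay between 0.562 and 0.993. Of 159 member values, 141 kept their direction and 18 reversed, and *Igf1r*, *Igf2r* and *Igfbp3* reversed in none. Leaving out 1 ventricle, log2 fold changes ranged from -0.03 to 0.15 for *Igf1*, -0.29 to 0.23 for *Igf2*, 0.05 to 0.13 for *Igf1r*, 0.02 to 0.15 for *Igf2r*, -0.06 to 0.56 for *Igfbp2*, 0.18 to 0.49 for *Igfbp3*, -0.15 to 0.01 for *Igfbp4*, -0.53 to 0.06 for *Igfbp5*, -0.45 to 0.42 for *Igfbp6* and -0.02 to 0.28 for *Igfbp7*; the cause was not tested. In the 3 limma fits on log2 TPM, *Igfbp4* was at 0.04 and *Igfbp6* at 0.03, below the median gene on that scale, which was shifted by 0.08 to 0.12. *Igfbp3* had an unadjusted p under 0.05 in 5 settings: these 3 fits, the replicate block and the fit without sibling replicate 1. That threshold was met by 962 of 13142, 945 of 13142 and 1182 of 17556 genes in the limma fits. It was met by 1217 of 13817 with the block and 922 of 13995 without that sibling, against 806 of 13817 in the main fit. The 3 limma fits read the same TPM values, so they are not independent of each other. *Igfbpl1* ranged from -0.90 to 0.09 leaving out 1 ventricle, reversing without sibling replicate 1, and *Yap1* at -0.001 without sibling replicate 3 and -0.02 without PostnMCM replicate 1. The count of all genes called was 1; it was 5 by the DESeq2 Wald test, 3 by limma on log2(TPM + 1) with no filter, 0 with the replicate block (1217 at an unadjusted p under 0.05), and 0 to 2 leaving out 1 ventricle (2 without sibling replicate 1, 0 without sibling replicate 3, PostnMCM replicate 1 or PostnMCM replicate 3). The difference in binding protein to ligand ratio, 3.3 with *Igfbp7* included, ranged from 0.97 to 5.08. With the replicate block *Igfbp3* was at 0.30 (unadjusted p = 0.0441). The labels tie no litter, day or batch to a replicate number, although same-numbered samples were alike in Y-linked counts; the correlations of their deviations were 0.331, 0.045 and -0.03, and differently numbered pairs gave -0.352 to 0.332. With a mean of at least 50 counts *Igfbp2* was not tested.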
